A study of Mus musculus with 6 samples.

Results

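The genes described here encode the machinery that degrades mRNA, in mouse bone marrow-derived macrophages (BMDMs) with and without a deletion in the hnRNPD gene. They were 50 of the 55254 gene symbols in the deposited count table, chosen by symbol for their place in deadenylation, decapping, 5′-to-3′ and 3′-to-5′ decay and nonsense-mediated decay (NMD), by a rule that reads no measured value. The count table covers 3 control and 3 M-Δx3,4 libraries. Control BMDMs came from C57BL/6J mice of the genotype hnRNPDfl/fl, in which loxP sites flank exons 3 and 4 of Hnrnpd, and M-Δx3,4 BMDMs from LysCre+hnRNPDfl/fl mice of the same strain, in which Cre expressed from the lysozyme M locus deletes those exons in the myeloid lineage. Donor mice were 6 to 8 weeks old. All cells grew for 10 days in medium conditioned by L929 fibroblasts and then received 100 ng/ml lipopolysaccharide (LPS) for 4 hours, so no unstimulated cells were compared. The control mice carried no Cre, and the effect of Cre alone cannot be told apart from that of the deletion. The labels do not say whether the 3 libraries of a group came from separate mice, so the p-values measure the spread between these libraries, which may be technical.

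Most cytoplasmic mRNAs begin to decay when CCR4-NOT and PAN2-PAN3 shorten the poly(A) tail. The LSM1-7 ring with PAT1 then binds the shortened 3′ end, DCP2 removes the cap with the help of DCP1 and the EDC proteins, and XRN1 digests the body of the RNA from its 5′ end, while the RNA exosome digests from the 3′ end. NMD is a separate route, in which UPF and SMG proteins recognise a stop codon upstream of an exon junction complex. hnRNPD, also called AUF1, is an RNA-binding protein that recognises AU-rich elements, often built around ATTTA in the DNA alphabet, and has been linked to both the decay and the stabilisation of mRNAs that carry them. The comparison asks whether the mRNAs of the machinery itself differed once hnRNPD was disrupted.

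Lsm1, which encodes the subunit that sets the cytoplasmic LSM1-7 ring apart from its nuclear counterpart, was 3.66-fold lower in M-Δx3,4 BMDMs and was the only one of the 48 members tested whose unadjusted p by edgeR's quasi-likelihood test was under 0.05. That is 2.08% of them, lower in M-Δx3,4, and 0 were higher, while 3.98% of all 11875 genes tested had such a p (2.53% lower and 1.45% higher), and none of the 11875, members included, had an adjusted p under 0.05 (the smallest was 0.824 over all genes and 0.984 over the members). Control and mutant libraries were separate, without overlap, for 5 members (10.4%), against 8.44% of all genes (4.26% lower and 4.18% higher). Edc3, Cnot10 and Smg5 lay lower and Pabpc1 higher in M-Δx3,4, in addition to Lsm1. Both shares are near those of all genes. Lsm1 was also the only member past the threshold of the study, which adds a log2 fold change of 1 or more in size, as 3.07% of all genes were. Upf2 and Cnot3 reached that fold without such a p. The log2 fold change (M-Δx3,4 over control) was negative for 21 members and positive for 27, with a median of 0.13 and a range from -1.87 to 1.06, beside a median of -0.01 over all genes. DESeq2 gave 3 members (6.25%) an unadjusted p under 0.05, namely Lsm1, Ddx6 and Pabpc1, beside 3.01% of all genes.

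**Figure D1:**
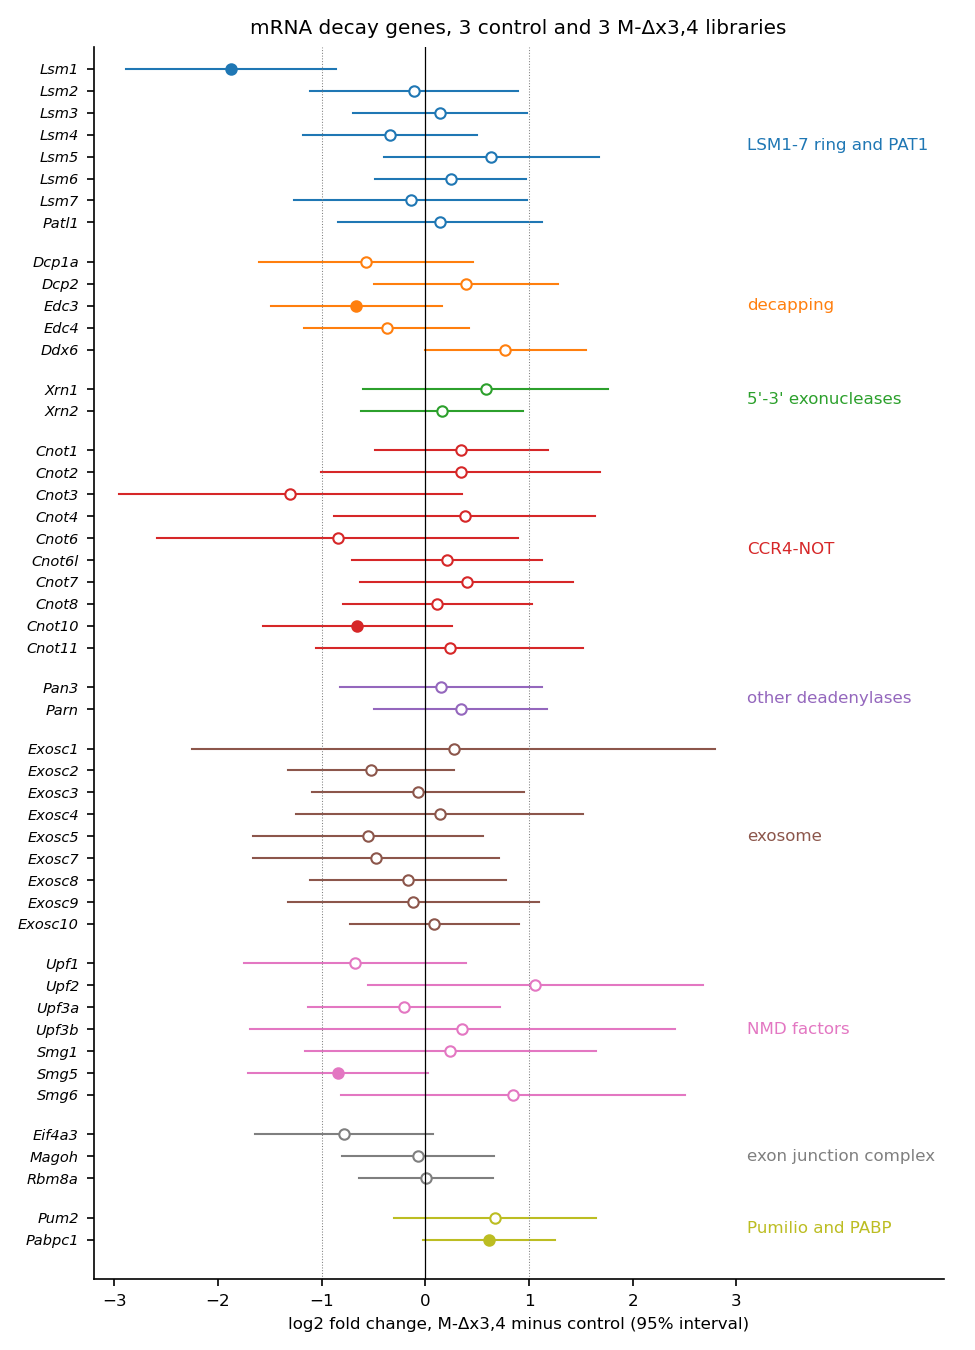
The log2 fold change of each of the 48 members tested (M-Δx3,4 minus control, x axis) with its 95% interval from edgeR's fit, grouped by complex and coloured by group. Filled points mark the 5 genes whose groups were separate, with no overlap between the libraries, and dotted lines mark a 2-fold difference. Only the interval of Lsm1 lies wholly away from 0.

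The precision of these values bounds what could have been seen. The standard error of the log2 fold change ran from 0.30 (Pabpc1) to 1.18 (Exosc1) with a median of 0.46, and the 95% interval lay within a 2-fold change in either direction for 6 members (12.5%, against 17.4% of all genes). For most members the interval reached past a 2-fold change, so the absence of a call does not show equal levels. Pan2, the catalytic subunit of PAN2-PAN3, had raw counts of 2, 2 and 0 across the controls and 5, 0 and 2 across the M-Δx3,4 libraries. Dis3, the catalytic subunit of the nuclear exosome, had 2, 3 and 1 against 1, 2 and 2. Both fell under the filter and were not tested.

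Summed counts were 5852374 to 6666525 per control library and 6627536 to 9008878 per M-Δx3,4 library. For Hnrnpd a single transcript, ENSMUST00000072750, was chosen by its identifier and not by its mean count. Other transcripts of the gene are not given here. ENSMUST00000072750 had 177.8, 104.2 and 69.6 normalized counts across the controls and 52.8, 12.6 and 16.0 across the M-Δx3,4 libraries. Every M-Δx3,4 library was thus lower, in the direction of the labels. The fitted log2 fold change came to -2.11 (standard error 0.54, adjusted p = 0.984 in edgeR's quasi-likelihood test). The 8 macrophage markers examined were all present, with summed normalized counts of 6452 to 7034 in control and 5413 to 7072 in M-Δx3,4 BMDMs. Among them Lyz2, the gene whose locus carries the Cre, had a log2 fold change of -0.91 and an unadjusted p under 0.05. The summed level of 6 B cell markers, mostly Igkc, was 300 to 358 in control and 142 to 164 in M-Δx3,4 BMDMs, with Ms4a1 at most 3 counts in any control library and at 0 in every M-Δx3,4 library. The part of these marker differences in the results below was not tested. A lower value in bulk RNA can come from fewer cells or from less RNA per cell, which cannot be told apart here.

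Among the LSM1-7 ring and its partner PAT1, which together hold the oligoadenylated 3′ end and promote decapping, Lsm1 alone had an unadjusted p under 0.05. Lsm1 (ENSMUST00000038421) was counted over 2126 bases at the end of the gene on the plus strand of chromosome 8 (mm10, 25802099 to 25804224), a region that begins with its 1877-base 3′ UTR. Its normalized counts were 29.1, 32.7 and 30.2 across the controls and 5.87, 9.71 and 9.17 across the M-Δx3,4 libraries. The highest M-Δx3,4 library held less than the lowest control library by a wide margin, and the 3 control libraries lay closer together (30.6 ± 1.9, SD, n = 3) than those of most members. The log2 fold change was -1.87 (standard error 0.48, 95% interval -2.89 to -0.86), with an adjusted p of 0.984 in edgeR's quasi-likelihood test over 32475 transcripts. The exact permutation test, two-sided, gave p = 0.1, the smallest that 3 libraries against 3 allow.

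The difference in Lsm1 did not rest on any single library. With each library left out in turn the log2 fold change lay between -1.997 and -1.689 and kept an unadjusted p under 0.05 in all 6 fits. The raw counts were 25, 32 and 26 against 6, 10 and 12, so the values rest on few reads, and Lsm1 could not be tested where at least 10 counts were required in every library. A second coding transcript, ENSMUST00000211168, gave a log2 fold change of -1.85, and ENSMUST00000211670, annotated as an NMD target, gave -1.20 with overlapping libraries. Their regions share most of their reads with that of ENSMUST00000038421 and are not independent of it.

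The other 7 genes of this group overlapped between control and M-Δx3,4. The log2 fold changes of Lsm2, Lsm3, Lsm4, Lsm5, Lsm6 and Lsm7 were -0.11, 0.14, -0.34, 0.64, 0.24 and -0.14, and that of Patl1, which encodes PAT1, was 0.14. LSM2 to LSM7 also serve in the nuclear LSM2-8 ring of the spliceosome, whose own subunit gene Lsm8 is not among the members.

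Because hnRNPD binds AU-rich elements, the annotated 3′ UTRs of the 5 genes with separate libraries were searched for ATTTA on the transcribed strand (GENCODE vM21 annotation, GRCm38). The UTR of Lsm1 held 3 copies in 1877 bases, that of Edc3 1 in 4004 bases and that of Pabpc1 1 in 237 bases. None was found in the 484 bases of Cnot10 or the 1230 bases of Smg5. Each copy is printed 5′ to 3′ with 10 bases on either side and the motif in capitals, so that the surrounding base composition can be read.
Lsm1 copy 1 (chr8:25802485-25802509, plus strand): aaaatatttcATTTActtgtaaata
Lsm1 copy 2 (chr8:25802767-25802791, plus strand): ttgagccctgATTTAcccacagttt
Lsm1 copy 3 (chr8:25803114-25803138, plus strand): tttctcagtaATTTAtctcggatat
Edc3 (chr9:57750555-57750579, plus strand): cttctagcttATTTAttggcttgcc
Pabpc1 (chr15:36596020-36596044, minus strand): acatcgaaaaATTTAaatattatga

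These motifs are common. ATTTA was present in the 3′ UTR of 34 of the 47 members with an annotated coding 3′ UTR (72.3%), against 68.5% of 9781 genes, and a stricter form, in which TT precedes and TT follows ATTTA, in Cnot6l, Edc3 and Xrn1 only (6.38%, against 7.62% of all genes). The stricter form is the copy of Edc3 printed above. The median log2 fold change was 0.22 over the 34 members with ATTTA and -0.12 over the 13 without, and over all genes 0.06 with and -0.14 without. Members with the motif also had longer UTRs, with a median of 1472.5 bases against 304, as did all genes (1648 against 394), so motif and length move together.

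Of the decapping genes, Edc3 had separate libraries. EDC3 is a scaffold of processing bodies that activates DCP2. Edc3 (ENSMUST00000043990, chromosome 9, plus strand, 57748496 to 57752748) had 77.9, 82.8 and 107.9 normalized counts across the controls and 54.8, 38.8 and 74.9 across the M-Δx3,4 libraries. The highest M-Δx3,4 library lay just under the lowest control library. This gave a log2 fold change of -0.67 (standard error 0.39, 95% interval -1.49 to 0.16), and its unadjusted p was not under 0.05 in any fit run. On the other strand the region of Clk3 lies within that of Edc3, and 485 of its bases held 1949 reads beside 435 for the whole of Edc3, so reads were assigned by strand.

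Dcp2, the decapping enzyme, had 93.0, 67.4 and 31.3 normalized counts across the controls and 84.1, 84.5 and 83.3 across the M-Δx3,4 libraries, with a log2 fold change of 0.39. The M-Δx3,4 libraries were almost equal and lay inside the range of the controls. Dcp1a, the cofactor of DCP2, and Edc4, the scaffold that joins them, had values of -0.57 and -0.37. Ddx6, the helicase that links deadenylation to decapping and represses translation, was named after its values were seen. It had 972.8, 589.5 and 394.5 normalized counts across the controls and 864.7, 1039.0 and 1439.0 across the M-Δx3,4 libraries. Only control replicate 1 reached into the M-Δx3,4 range. The log2 fold change was 0.77 (standard error 0.36, 95% interval -0.00 to 1.55). It ran from 0.52 to 1.18 as each library was left out, the highest without control replicate 1.

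Xrn1, the cytoplasmic exonuclease that completes decay after decapping, had 58.1, 13.3 and 11.6 normalized counts across the controls and 34.2, 38.8 and 50.4 across the M-Δx3,4 libraries, for a log2 fold change of 0.58. As for Ddx6, control replicate 1 alone overlapped the M-Δx3,4 libraries, here by exceeding them all. As each library was left out, the value of Xrn1 ran from 0.23 to 1.72, the highest without control replicate 1. Xrn2, its nuclear counterpart, had 0.16.

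**Figure D2:**
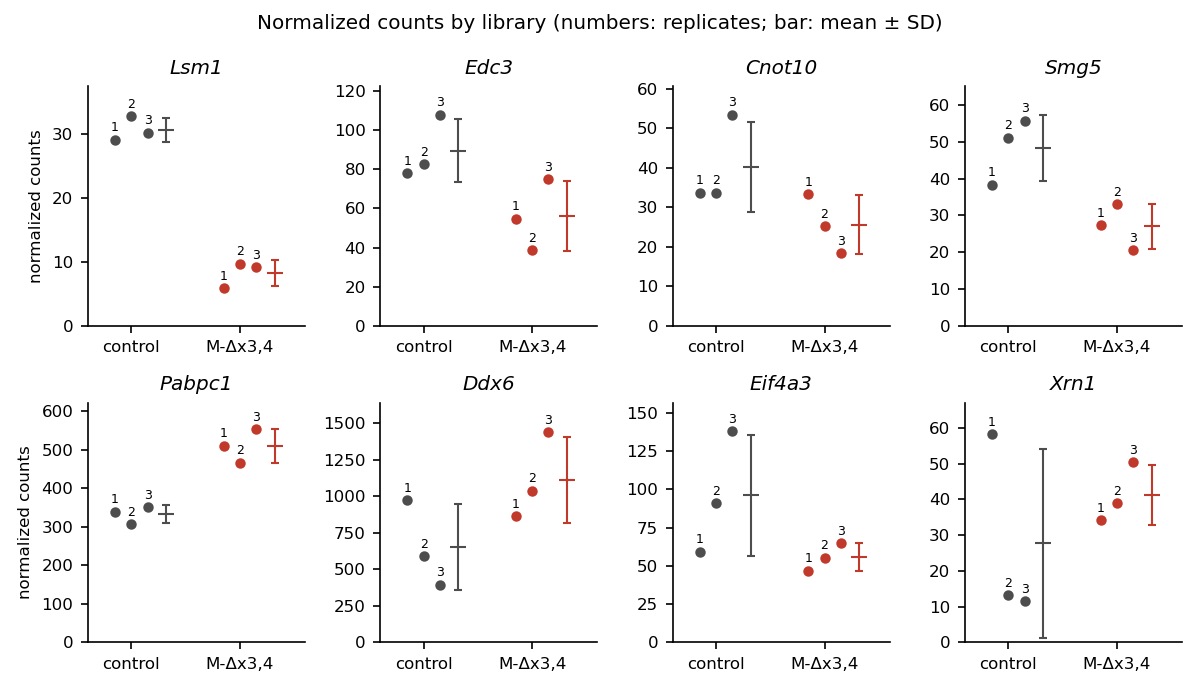
Normalized counts (y axis, from 0) in each library for 8 members, with controls in grey, M-Δx3,4 in red, the replicate number above each point and the group mean ± SD (n = 3) beside it. The groups are separate for Lsm1, Edc3, Cnot10, Smg5 and Pabpc1, while control replicate 1 lies among or above the M-Δx3,4 libraries of Ddx6 and Xrn1 and among those of Eif4a3.

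For CCR4-NOT, the main deadenylase, 7 of 10 genes had a positive log2 fold change (median 0.22, range -1.30 to 0.40) and none passed the test. Cnot10, which encodes a subunit that docks on the amino-terminal part of the scaffold CNOT1, was the gene with separate libraries. Its counts (ENSMUST00000070117, chromosome 9, minus strand, 114585629 to 114591537) were 33.7, 33.7 and 53.4 across the controls and 33.3, 25.2 and 18.3 across the M-Δx3,4 libraries. The separation was by less than 1 normalized count, between M-Δx3,4 replicate 1 and control replicates 1 and 2. Its log2 fold change was -0.65 (standard error 0.43, 95% interval -1.57 to 0.26).

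Cnot3, a subunit of the NOT module, had the lowest value of the complex, -1.30 (standard error 0.78), from 5.81, 8.17 and 20.9 normalized counts across the controls and 4.89, 7.77 and 1.53 across the M-Δx3,4 libraries. The libraries overlapped, and the difference came from control replicate 3 and M-Δx3,4 replicate 3. Its region overlaps that of Leng1 on the other strand, which held 262 reads beside 46 for Cnot3.

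The catalytic subunits come as 2 pairs of paralogs. Cnot7 and Cnot8 encode alternative CAF1 nucleases. Cnot7 had 51.1, 15.3 and 29.0 normalized counts across the controls and 54.8, 42.7 and 28.3 across the M-Δx3,4 libraries (log2 fold change 0.40), and Cnot8 had 17.4, 33.7 and 27.8 against 27.4, 26.2 and 32.1 (0.12). Cnot6 and Cnot6l encode alternative CCR4 nucleases. Cnot6 had 22.1, 7.15 and 6.96 against 1.96, 1.94 and 15.3 (-0.85). As each library was left out, the value of Cnot6 ran from -2.55, without M-Δx3,4 replicate 3, to -0.09. Cnot6l had 99.96, 33.7 and 49.9 against 64.6, 67.0 and 80.2 (0.21). All 4 overlapped between the groups. The scaffold Cnot1 had a log2 fold change of 0.35, Cnot2 of 0.34, the ubiquitin ligase Cnot4 of 0.38, and Cnot11, the partner of CNOT10, of 0.24.

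Beyond CCR4-NOT, Parn, a deadenylase that acts on many non-coding RNAs, had 111.6, 71.5 and 49.9 normalized counts across the controls and 94.9, 119.4 and 81.0 across the M-Δx3,4 libraries (log2 fold change 0.34). Pan3, the partner of PAN2, had a value of 0.15. Both overlapped.

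None of the 9 exosome genes tested passed the test or had separate libraries, with a median log2 fold change of -0.12 and a range from -0.55 to 0.27. Exosc10, the catalytic subunit of the nuclear exosome that trims RNA alongside DIS3, had 84.8, 72.5 and 61.5 normalized counts across the controls and 106.6, 60.2 and 65.7 across the M-Δx3,4 libraries, a value of 0.09. The groups overlapped, and the sign turned without M-Δx3,4 replicate 1 (-0.21) and without control replicate 3 (-0.01). The barrel and cap subunits Exosc1, Exosc2, Exosc3, Exosc4, Exosc7 and Exosc8 had 0.27, -0.52, -0.07, 0.14, -0.48 and -0.17.

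The exosome also held the members whose control libraries were farthest apart. Exosc9, a subunit of the barrel, had 404.5, 207.4 and 33.6 normalized counts across the controls and 167.3, 223.3 and 204.8 across the M-Δx3,4 libraries. Exosc5, another subunit of the barrel, had 34.9, 134.9 and 251.8 across the controls and 97.8, 112.6 and 77.2 across the M-Δx3,4 libraries. For both genes every M-Δx3,4 library lay within the range of the controls, as for 14 members in all (29.2%, against 33.3% of all genes). The controls of Exosc9 and Exosc5 ran in opposite orders. Both were singled out after seeing their values. The region of Exosc9 lies wholly within that of Ccna2 on the other strand, which held 61 reads beside 1249.

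Of the 7 NMD factors, Smg5 had separate libraries. SMG5 brings decay enzymes to NMD targets that carry phosphorylated UPF1. Smg5 (ENSMUST00000001451, chromosome 3, plus strand, 88361109 to 88362587) had 38.4, 51.1 and 55.7 normalized counts across the controls and 27.4, 33.0 and 20.6 across the M-Δx3,4 libraries. All 3 M-Δx3,4 libraries lay under all 3 controls. For Smg5 the log2 fold change was -0.84 (standard error 0.41, 95% interval -1.71 to 0.02). Its unadjusted p came under 0.05 with 1 transcript per gene, with at least 10 counts required in every library and without control replicate 1.

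Upf2, the bridge between UPF1 and the exon junction complex, had the highest value of any member, 1.06 (standard error 0.76), from 11.6, 5.11 and 1.16 normalized counts across the controls and 19.6, 5.83 and 12.2 across the M-Δx3,4 libraries. The groups overlapped at these low counts. Upf1, the central helicase, had 13.9, 33.7 and 32.5 against 18.6, 9.71 and 21.4 (-0.68), Smg1, the kinase of UPF1, 33.7, 6.13 and 4.64 against 19.6, 13.6 and 19.1 (0.24), and Smg6, the endonuclease of the pathway, 1.16, 7.15 and 5.80 against 5.87, 11.7 and 8.41 (0.85). The libraries of all 3 overlapped. Upf3a and Upf3b, paralogs that bind the junction complex, had values of -0.20 and 0.36.

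The core of the exon junction complex consists of EIF4A3 and the MAGOH-RBM8A pair. Eif4a3 (ENSMUST00000026667) had 59.3, 90.9 and 138.1 normalized counts across the controls and 47.0, 55.3 and 65.0 across the M-Δx3,4 libraries. Control replicate 1 lay between M-Δx3,4 replicates 2 and 3, and the other controls lay above. This gave a log2 fold change of -0.78 (standard error 0.40, 95% interval -1.64 to 0.08). Its partners had values near 0. Magoh had -0.07, and Rbm8a had 425.9 ± 12.9 in control and 427.0 ± 76.6 in M-Δx3,4, with a log2 fold change of 0.00. Whether Eif4a3 differed from its partners was not tested.

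Pabpc1, the cytoplasmic poly(A)-binding protein that coats the tail and meets both CCR4-NOT and the translation machinery, was the member with separate libraries in the higher direction. It also had the highest level per length of all members, with a mean of 63.6 TPM over the 6 libraries. These are the authors' values, which divide by region length, and Magoh (26.1 TPM) and Exosc9 (25.8 TPM) came next. By normalized counts, which do not divide by length, Ddx6 was higher, with means of 652.3 in control and 1114.2 in M-Δx3,4. The Pabpc1 transcript ENSMUST00000155116 (chromosome 15, minus strand, 36595658 to 36596562) had 339.4, 307.5 and 351.5 normalized counts across the controls and 510.6, 466.1 and 553.3 across the M-Δx3,4 libraries. The lowest M-Δx3,4 library lay well above the highest control, and the libraries were close together within each group (332.8 ± 22.7 and 510.0 ± 43.6, SD, n = 3). The log2 fold change was 0.62 (standard error 0.30, 95% interval -0.02 to 1.25), with an adjusted p of 0.984 in edgeR's quasi-likelihood test and an exact permutation p of 0.1. The transcript ENSMUST00000001809, which shares most of these reads, gave 0.66 and an unadjusted p under 0.05, as did the retained-intron transcripts ENSMUST00000142357 and ENSMUST00000146577, which have the same counts as each other. Over all fits the value of ENSMUST00000155116 lay between 0.55 and 0.68. Pabpc1 has close paralogs and many processed copies in the genome, as has Magoh in Magohb, and how reads were shared among them is uncertain.

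Pum2, a Pumilio protein that recruits CCR4-NOT to its target mRNAs, had 52.3, 19.4 and 31.3 normalized counts across the controls and 41.1, 44.7 and 77.9 across the M-Δx3,4 libraries, for a log2 fold change of 0.68 with overlapping libraries. Its library values, like those of Rbm8a, are given after they were seen.

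The spread among the controls was a property of most members. With 1 added to each normalized count, the highest and lowest control libraries were more than 2-fold apart for 32 of the 48 members (66.7%, against 60.1% of all genes), while the M-Δx3,4 libraries were so for 15 (31.3%, against 37.5%). The control range exceeded the difference between the groups for 41 members (85.4%, against 87.2%). Control replicate 1 was the highest and replicate 3 the lowest control for 15 members (31.3%, against 27.1% of all genes). Exosc9, Xrn1, Upf2, Smg1, Ddx6 and Dcp2 were among them. The reverse order held for 13 (27.1%, against 23.2%), among them Exosc5, Edc4, Lsm4, Lsm7 and Eif4a3. The shares of both orders are near those of all genes. Lsm1, Pabpc1 and Rbm8a were among those whose controls lay close together.

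**Figure D3:**
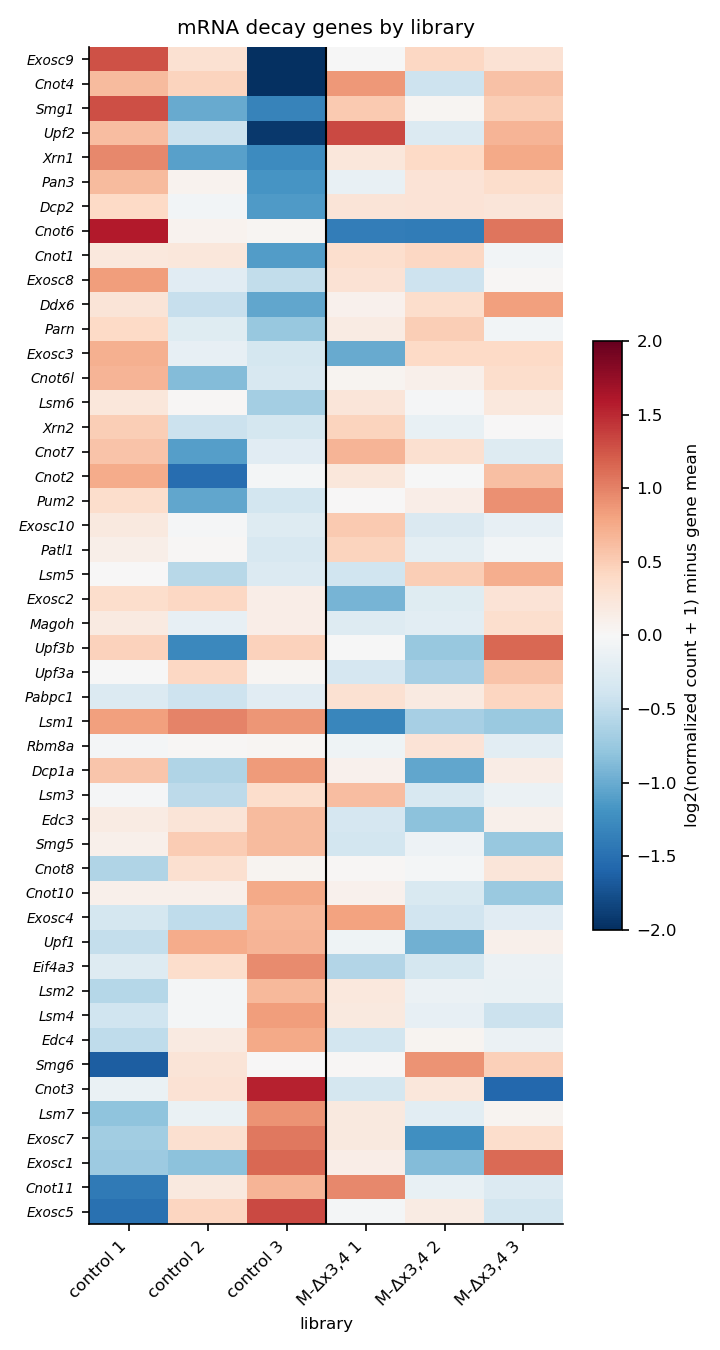
Each row is a member and each column a library. Colour gives log2(normalized count + 1) minus the gene's mean over the 6 libraries, cut at -2 and 2, and rows are ordered by the ratio of control replicate 1 to control replicate 3. The columns of control replicates 1 and 3 run in opposite directions down the rows, the M-Δx3,4 columns are paler, and the row of Lsm1 changes colour at the border between the groups.

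The order of the controls moved with base composition. Across the 47 members with an annotated 3′ UTR, log2 of control replicate 1 over control replicate 3, with 1 added to each normalized count, was related to the GC content of the UTR with a Pearson r of -0.52 and a Spearman rho of -0.57, and across 9781 genes with -0.38 and -0.47. These are descriptions across genes, which share the same 2 libraries and are not replicates. Exosc5, with 62.9% GC, had the lowest ratio of any member (-2.82 on the log2 scale, with 1 added to each count), and Exosc9, with 40.6% GC, the highest (3.55). The part of base composition in the differences between the groups was not tested.

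**Figure D4:**
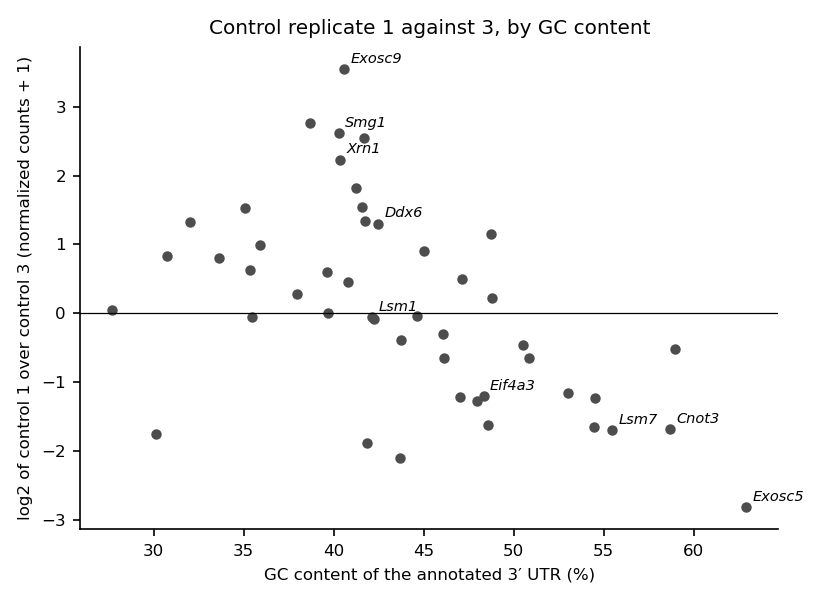
GC content of the annotated 3′ UTR (x axis, percent) against log2 of the normalized count in control replicate 1 over that in control replicate 3, with 1 added to each (y axis), 1 point per member. Points fall from Exosc9 and Smg1 toward the top to Exosc5 at the lower right, and Lsm1 lies close to 0.

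Leaving out control replicate 1 changed the calls of many members together with the rest of the transcriptome. Without it, 9 of 48 members (18.8%) had an unadjusted p under 0.05, and so did 15.7% of all genes. Lsm1, Exosc5 (-1.01), Smg5 (-0.98) and Eif4a3 (-1.03) were then lower, and Ddx6 (1.18), Xrn1 (1.72), Upf2 (1.93), Smg1 (1.67) and Pum2 (1.12) higher. No member had an adjusted p under 0.05 (the smallest was 0.162, edgeR's quasi-likelihood test). Apart from Lsm1, Ddx6 and Smg5, none of these had an unadjusted p under 0.05 in any fit that kept this library.

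Transcripts that NMD itself should remove were read as well. The members had 360 listed transcripts, of which 165 could be tested, with 125 distinct sets of counts. Those with an unadjusted p under 0.05 were 5, 2 from Lsm1 and 3 from Pabpc1, beside 4.13% of all 32475 transcripts. Of 17 tested transcripts annotated as NMD targets, from 16 genes, none had such a p, 7 had a negative and 10 a positive log2 fold change, and the median was 0.09 (range -1.20 to 0.85). These transcripts share 3′ regions with coding transcripts of the same gene, so 3′ counts rarely separate the forms. For 6 members (Cnot2, Pan3, Exosc4, Exosc10, Smg6 and Pum2) the transcript with the highest count was itself annotated as an NMD target. With a coding transcript in its place, as an alternative chosen after the data were seen, none of these 6 had an unadjusted p under 0.05. The transcript of Lsm1 was already a coding one, so its value did not change, and Lsm1 remained the only member with such a p.

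Other genes of the same routes were counted in the same way. Of 52 further genes of mRNA decay, 48 could be tested, and C1d, which encodes a cofactor of the nuclear exosome, alone had an unadjusted p under 0.05 (2.08%, against 3.98% of all genes in either direction and 1.45% higher). C1d had 9.30, 3.07 and 3.48 normalized counts across the controls and 12.7, 13.6 and 29.0 across the M-Δx3,4 libraries, for a log2 fold change of 1.80 (SE 0.65, adjusted p = 0.984, edgeR's quasi-likelihood test). All M-Δx3,4 libraries lay above all controls, at low counts. The value stayed between 1.304 and 2.471 as each library was left out, with an unadjusted p under 0.05 in 4 of the 6 fits. Groups were also separate for Btg2 (-0.45) and Noct (-0.64), which act in deadenylation and lay lower in M-Δx3,4.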

How the data were processed

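RNA was sequenced from its 3′ ends (QuantSeq) in 3 control and 3 M-Δx3,4 libraries. Per the submitters' processing notes, reads were aligned with TopHat2 2.1.1 and Bowtie2 2.3.2 to mm10 (GRCm38.p6), and bedtools was used. The authors deposited raw counts of reads per 3′ UTR region and TPM values, which divide counts by region length. Their table of fold changes and p-values was not used, nor were 18 of its per-sample columns. Here the regions of a transcript were summed and scaled with RLE factors, and transcripts with over 4.89 normalized counts in any library were tested. The groups were compared in edgeR 4.0.16 (quasi-likelihood test, Benjamini-Hochberg over 32475 transcripts). The transcript of highest mean count stands for a gene, apart from Hnrnpd, whose transcript was chosen by its identifier. Members with an unadjusted p under 0.05, a log2 fold change of 1 or more in size or separate libraries, the catalytic subunits and Eif4a3 are given per library. 3′ UTR sequences came from GENCODE vM21. The rule for members reads symbols only, but members and lists were chosen with earlier results of these data known. Alternatives were TMM factors, library totals, DESeq2 1.42.0, limma-voom (limma 3.58.1), other filters, 1 transcript per gene, a replicate block and leaving out each library. Intervals cover the spread between libraries only. Some results are not reported here.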

Additional observations from a re-analysis of the deposited data

How the results depend on the processing

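Over all fits Lsm1 kept its direction, with a log2 fold change from -1.997 to -1.689 and an adjusted p from 0.162 to 1.00, and an unadjusted p under 0.05 wherever it could be tested. Members higher with an unadjusted p under 0.05 were 0, but 1 with TMM factors, library totals, limma-voom, no filter, filterByExpr or a replicate block, and 2 with DESeq2 or at least 10 counts in every library. They were Ddx6 or Pabpc1. Over all genes in these settings, 1.15% (DESeq2) to 1.72% (limma-voom) were higher, and 1.51% (limma-voom) to 2.9% (1 transcript per gene) were lower. The share past the threshold ran from 1.38% (at least 10 counts in every library) to 3.27% (1 transcript per gene). Members lower were 1, but 2 with 1 transcript per gene, and those that also passed an absolute log2 fold change of 1 were 1, but 0 with at least 10 counts in every library, where Lsm1 could not be tested. Other decay genes higher were 1, but 2 with DESeq2 or limma-voom and 0 with at least 10 counts. Leaving out each library in turn gave 0 to 5 members higher, 1 to 4 lower, 1 to 8 past the threshold and 6 to 20 with separate libraries (2 libraries against 3 separate more easily), while over all genes the shares in the same fits were 0.84% to 9.42%, 1.44% to 6.31%, 2.01% to 11.0% and 15.3% to 32.5%. They gave 0 to 7 other decay genes higher and 0 to 1 lower, and -3.02 to -1.69 for Hnrnpd. The highest of each count came without control replicate 1. Among the genes followed singly in these fits, signs turned for Cnot6l (-0.085 to 0.76), Cnot8 (-0.11 to 0.34), Exosc10 (-0.21 to 0.23), Smg1 (-0.16 to 1.67) and Exosc5 (-1.01 to 0.18). Not every member was followed. Members with a negative log2 fold change were 19 (without M-Δx3,4 replicate 2) to 29 (without control replicate 2), against 21 with all libraries. The median over the members ran from -0.10 (without control replicate 2) to 0.17 (without M-Δx3,4 replicate 2), against 0.13. The cause of these shifts was not tested. The labels do not say whether replicate numbers pair the samples. The deviations of same-numbered libraries from their group means correlated at -0.21, 0.54 and -0.31 over 4723 genes. Not every library correlated best with its own number. The deviations were taken within groups of 3 libraries, so these correlations depend on one another and cannot decide whether samples were paired. The replicate block gave 1 member lower (Lsm1, -1.89) and 1 higher (Ddx6, 0.84). At least 10 counts in every library were held by 34 of 48 members, and low counts limit the rest.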
